A study of Mus musculus with 6 samples.

Results

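Axon guidance ligands and receptors are the secreted and membrane-bound cues that steer growing axons, together with the receptors that read them. They were chosen here by gene symbol, and 67 of the 25755 genes in the table met the rule. They are 20 semaphorins, 9 plexins, 2 neuropilins, 8 ephrins, 14 Eph receptors, 3 Slits, 4 Robo receptors, 2 netrins, and 5 netrin receptors, all annotated as protein coding.

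Semaphorins signal through plexins, and the secreted class 3 semaphorins also need a neuropilin as a co-receptor. Ephrins are anchored in the membrane and signal between touching cells through Eph receptor tyrosine kinases, with ephrin-A ligands favouring EphA and ephrin-B ligands favouring EphB receptors. Slits repel axons through Robo receptors, while netrins attract through Dcc and repel through the Unc5 family. In the adult optic nerve, which holds the axons but not the cell bodies of retinal ganglion cells, several of these genes are made by glia, and some of their products on myelin inhibit axon growth.

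All 6 mice were Nf1flox/flox; hGFAP-Cre mice, in which Cre recombinase under the human GFAP promoter removes Nf1 from neuroglial progenitors and their progeny, so the controls carried the same deletion. Mice 1 to 3 had sham surgery and mice 4 to 6 had optic nerve crush (ON-CR), both at 6 weeks of age, and whole optic nerves were taken at 3 months of age for bulk RNA sequencing. The comparison asks which transcripts differ in the nerve after injury in mice that lack Nf1 in these cells. The study reports that such mice form optic gliomas after ON-CR by the age sampled here. Differences that go with injury and with tumor therefore cannot be told apart. No mice without the deletion were analysed here, and the labels do not say whether a library holds one nerve or both.

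Libraries held 17414091 to 23621006 estimated reads, with all 3 ON-CR libraries below all 3 sham libraries. Nerve markers were present, with summed astrocyte markers between 230025 and 323680 normalized reads, and photoreceptor markers were between 25 and 59. Mucosal and gland markers, of which 4 were in the table, differed between libraries. They summed to 22, 3 and 7688 in sham mice 1 to 3 and to 0, 5063 and 6013 in ON-CR mice 4 to 6. The source of these reads was not tested. Of 10 myelinating oligodendrocyte markers, 8 were lower after ON-CR at an adjusted p at or under 0.05, and their sum was 1301279 to 1857020 in sham and 635013 to 752697 in ON-CR mice. Of 10 microglial markers, 5 were higher, with sums of 20382 to 26310 and 28374 to 44574. No astrocyte, oligodendrocyte or microglial marker was at 0 in any library. Nf1 itself was at 343 to 447 in sham and 380 to 438 in ON-CR mice, and since the deletion is shared by all mice this checks no label. Sex-linked transcripts differed as well, with Xist at 2.14 to 30.9 in sham and 2708 to 6357 in ON-CR mice, so surgery and sex cannot be told apart. The Y-linked gene Ddx3y was at 1291 to 1645 in sham mice, 976 in ON-CR mouse 4, 4.19 in mouse 5 and 0 in mouse 6. ON-CR mouse 4 thus held both transcripts, which its label does not account for. In bulk tissue, fewer cells of a type and less RNA per cell cannot be told apart either.

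Among the 67 genes, 1 passed the test across all genes. Ephb2, which encodes a receptor for ephrin-B ligands, rose 2.43-fold after ON-CR. It was 1.49% of the guidance genes, against 2.1% of all genes called in either direction and 0.971% called higher. None fell, against 1.13% of all genes called lower. No gene but Ephb2 passed the filter of the study's methods, an unadjusted p at or under 0.05 with a 2-fold change, which 4.66% of all genes passed. The study applied that filter to a DESeq2 test of counts, and here it was applied to the limma fit of log2(value + 1). The study's results also state a stricter filter, which was not applied here. The median standard error of a log2 fold change was 0.23 over these genes, with 3 mice per group. Without ON-CR mouse 4, which held both Xist and Ddx3y, 4 of the 67 were called, with 1.79% of all genes called in that fit. Ephb2 then had a log2 fold change of 1.39 and an adjusted p of 0.0393 by limma. Ddx3y was at 4.19 and 0 in ON-CR mice 5 and 6 and high in all sham mice, so surgery and sex coincide in that fit. The same holds for every value given below without ON-CR mouse 4.

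Levels between genes were compared as normalized reads per kilobase of exon. Efnb3, an ephrin-B ligand, had the highest level of the 67 genes in sham nerves, at 657 ± 101 (SD, n = 3) per kilobase. Sema4d, a membrane-bound semaphorin that binds plexin-B1, followed at 362 ± 47.3 (SD, n = 3), and Efna5, an ephrin-A ligand, at 242 ± 82.5 (SD, n = 3). The mean of the next gene, Ephb1, at 197 ± 21.9 (SD, n = 3), lay within 1 SD of that of Efna5. Sema3b, Unc5b, Plxnb3, Plxnb2, Nrp1 and Sema6d came next, between 149 and 186 per kilobase, and did not differ from their neighbours beyond their SDs. Ephb2 ranked 57 of 67 in sham nerves at 5.58 ± 1.46 (SD, n = 3) per kilobase and 42 of 67 after ON-CR at 13.6 ± 1.61 (SD, n = 3). Ephb1 moved from rank 4 to rank 11. The lowest sham levels were those of Robo3 at 0.571, Sema6c at 0.986 and Epha6 at 1.20 per kilobase. No gene of the 67 was at or under 3 reads in every library, and 65 had a mean of at least 10 normalized reads.

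**Figure D1:**
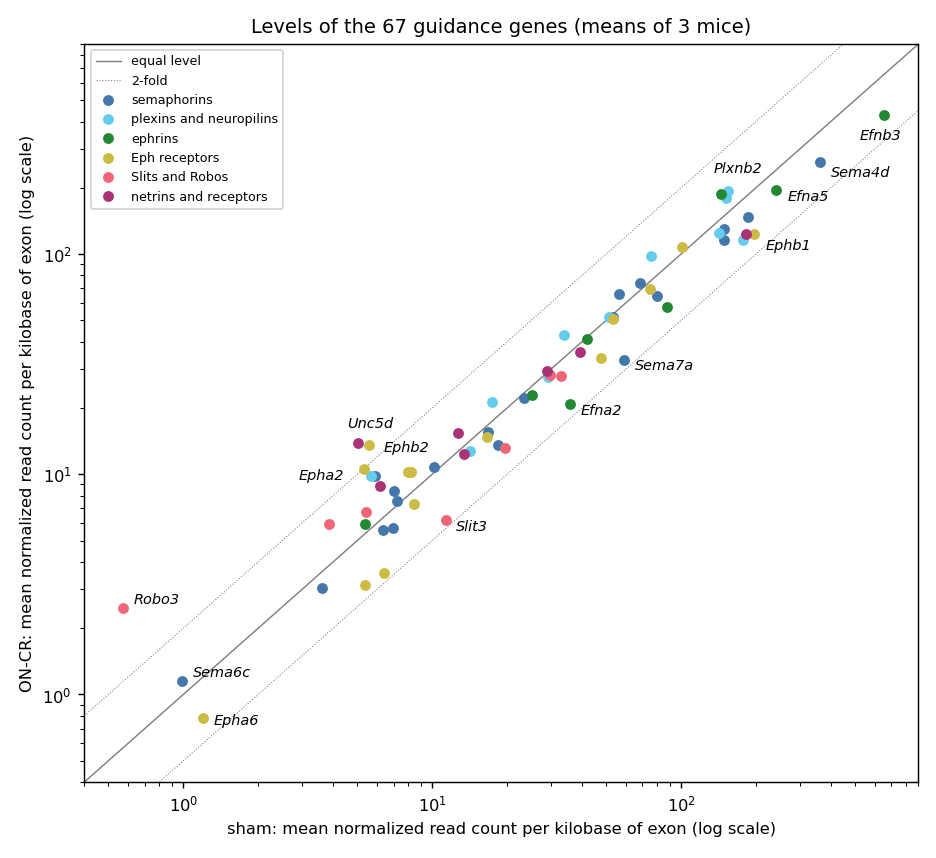
Mean normalized read count per kilobase of exon of the 67 guidance genes in sham (x axis) and ON-CR nerves (y axis), both on a log scale, with 1 point per gene and lines for equal levels and 2-fold differences. Most genes lie between the 2-fold lines, with Efnb3 highest in both groups and Ephb2, Robo3 and Unc5d above the upper line. The ON-CR mean of Robo3 is raised by mouse 6 and that of Unc5d by mouse 5.

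The promoters of Ephb2 and Ephb1 are shown because these closely related receptors, the ones with the highest and the lowest log2 fold change in the EphB family, stood on opposite sides of 0, and that of Unc5b because it was the most abundant netrin receptor. Each is the 250 bases before the RefSeq transcription start in GRCm38.p6, read 5′ to 3′ on the minus strand, at chr4:136836013-136836262 for Ephb2, chr9:102354694-102354943 for Ephb1 and chr10:60831582-60831831 for Unc5b. Capitals mark a GC box, searched as GGGCGG on both strands.
Ephb2: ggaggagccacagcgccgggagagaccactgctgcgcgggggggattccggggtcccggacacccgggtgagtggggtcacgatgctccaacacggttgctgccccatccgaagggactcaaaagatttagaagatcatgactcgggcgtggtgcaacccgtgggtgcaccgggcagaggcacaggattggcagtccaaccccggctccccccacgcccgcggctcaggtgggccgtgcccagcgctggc
Ephb1: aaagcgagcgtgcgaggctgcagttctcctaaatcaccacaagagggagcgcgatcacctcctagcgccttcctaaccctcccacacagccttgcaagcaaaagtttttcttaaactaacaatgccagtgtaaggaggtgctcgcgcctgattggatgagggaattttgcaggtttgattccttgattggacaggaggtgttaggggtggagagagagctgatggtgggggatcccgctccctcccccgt
Unc5b: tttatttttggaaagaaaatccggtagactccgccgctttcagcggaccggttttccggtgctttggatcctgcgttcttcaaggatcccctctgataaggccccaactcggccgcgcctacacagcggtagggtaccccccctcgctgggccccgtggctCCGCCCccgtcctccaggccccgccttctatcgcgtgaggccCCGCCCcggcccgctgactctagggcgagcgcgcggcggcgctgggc
Unc5b had 2 GC boxes in this window, both read as CCGCCC, and Ephb2 and Ephb1 had 0. Neither the SOX core ACAAAG nor the TATA box TATAAA was found in the 3 windows on either strand. Of all 32851 promoter windows of this length, 32.7% held the GC box, 16.5% the SOX core and 12.4% the TATA box. Over the 73 windows of the 57 guidance genes with an entry, the shares were 71.2%, 9.59% and 2.74%. The windows held 20 CpG for Ephb2, 10 for Ephb1 and 27 for Unc5b, against a median of 6 over all windows. These counts describe the letters of the windows and no binding was measured.

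Ephrins and Eph receptors held the only called gene. Ephb2 (chr4:136647539-136835988, minus strand, GRCm38) had 91.5, 59.3 and 60.1 normalized reads in sham mice 1 to 3, against 148, 181 and 184 in ON-CR mice 4 to 6. Every ON-CR value was above every sham value, with sham mouse 1 the highest of its group and ON-CR mouse 4 the lowest of its own. The log2 fold change was 1.29 (SE 0.24, 95% interval 0.76 to 1.82) with an adjusted p of 0.0247 by limma. The adjusted p was 0.132 without sham mouse 2, 0.0897 without sham mouse 3 and 0.168 without ON-CR mouse 6, while the log2 fold change stayed between 1.19 and 1.49 when each mouse was left out. For a single gene, the smallest exact permutation p that 3 mice against 3 allow is 0.1, and Ephb2 was at it.

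Ephb1, the most abundant EphB receptor gene, stood at 1218, 1522 and 1406 in sham mice, against at 1178, 641 and 767 in ON-CR mice. The groups did not overlap, but ON-CR mouse 4 lay just under sham mouse 1. Its log2 fold change was -0.72 (SE 0.20) with an adjusted p of 0.110, and it was called in 1 of 16 alternatives. Without ON-CR mouse 4 the log2 fold change was -0.97 with an adjusted p of 0.0172, without ON-CR mouse 5 it was -0.53 with 0.160, and the highest adjusted p, without sham mouse 2, was 0.379. Per kilobase, the ratio of Ephb1 to Ephb2 was 24.0, 46.2 and 42.1 in sham mice, against 14.4, 6.36 and 7.52 in ON-CR mice. The ratio does not depend on the scaling between libraries. As the groups of both genes were apart in opposite directions, those of their ratio had to be apart too, and it is given as a description. Ephb3 and Ephb6, the latter without kinase activity, and Ephb4, an endothelial receptor, overlapped between groups, with log2 fold changes between -0.11 and 0.36.

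The ligands of Ephb2 were not called. Efnb3 (chr11:69554092-69560205, minus strand) was at 2009, 2448 and 1820 in sham mice, against 1616, 1233 and 1245 in ON-CR mice, without overlap. Its log2 fold change was -0.62 (SE 0.15), with an adjusted p of 0.0717. It was called in 2 of 16 alternatives, with an adjusted p of 0.0451 in a robust fit and 0.0438 without ON-CR mouse 4, and it was at 0.108 under scaling by library total, 0.175 without sham mouse 1 and 0.294 without sham mouse 2. Efnb1, an X-linked gene, was at 271, 310 and 326 in sham and 255, 177 and 165 in ON-CR mice, also without overlap, with a log2 fold change of -0.62 (SE 0.20) and an adjusted p of 0.151. Efnb2, the ligand known from arterial endothelium, was at 249, 309 and 301 in sham and 306, 267 and 277 in ON-CR mice, which overlapped, with a 95% interval of the log2 fold change from -0.36 to 0.33. The family median log2 fold change was -0.62, and -0.49 under scaling by library total. Without X- and Y-linked and immunoglobulin genes, which leaves Efnb2 and Efnb3, it was -0.31. Epha4, which binds ephrin-B as well as ephrin-A ligands, had the highest level of the EphA genes and overlapped between groups, at 815 ± 105 (SD, n = 3) in sham and 864 ± 60.4 (SD, n = 3) in ON-CR mice.

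**Figure D2:**
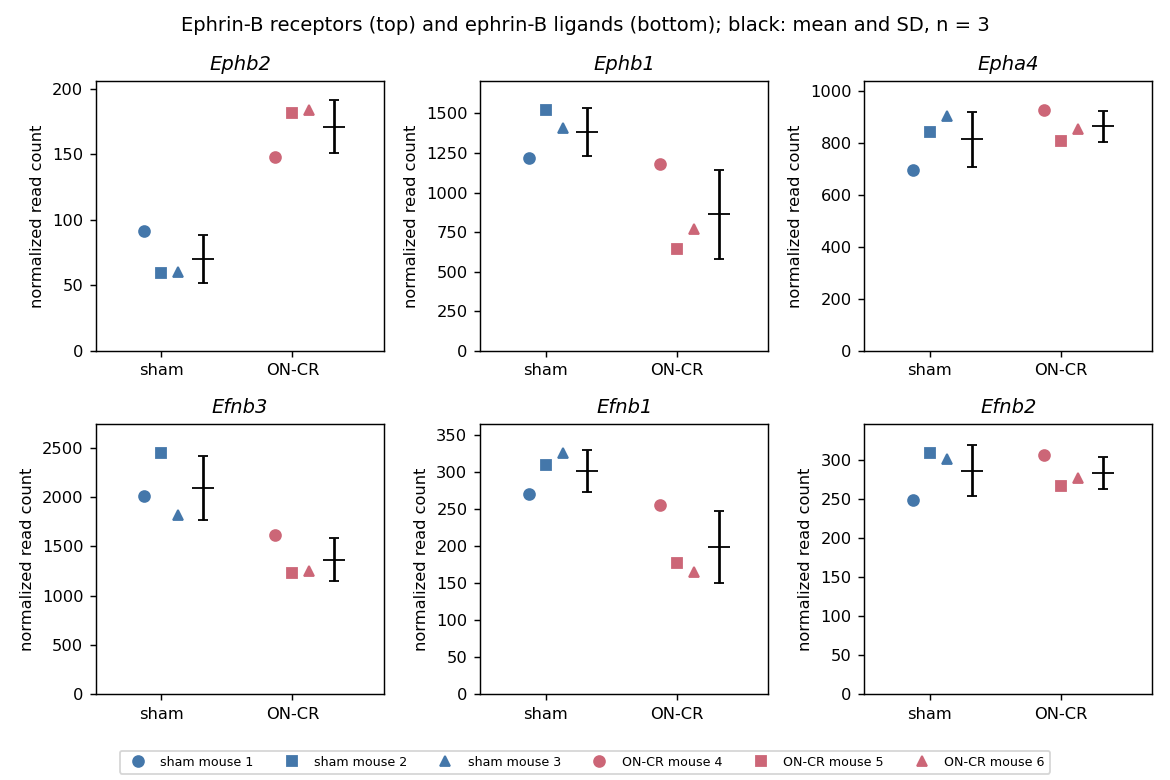
Normalized read count (y axis, starting at 0) of 3 receptors and the 3 ligands of the ephrin-B system in each mouse, by group (x axis), with the mean and SD of 3 mice in black. Ephb2 is at or above 148 in every ON-CR mouse and at or under 91.5 in every sham mouse, Efnb3, Efnb1 and Ephb1 lie lower in every ON-CR mouse than in any sham mouse, and Epha4 and Efnb2 overlap.

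Of the ephrin-A side, Efna2 had the largest change among the ligands, at 72.2, 86.8 and 70.4 in sham and 46.9, 43.0 and 43.6 in ON-CR mice. The groups did not overlap, and the log2 fold change was -0.76 (SE 0.25) with an adjusted p of 0.169. Efna5, which patterns retinal axons in the visual targets during development, was at 1315, 650 and 957 in sham and 557, 1266 and 541 in ON-CR mice. It was high in sham mouse 1 and ON-CR mouse 5, and the groups overlapped. Efna1, Efna3 and Efna4 overlapped as well. Epha2 was at 13.8, 33.6 and 27.2 in sham and 54.8, 31.4 and 62.3 in ON-CR mice. Its log2 fold change of 1.00 (SE 0.42) was just under the 2-fold limit on this scale, its groups overlapped, and its adjusted p was 0.292. With its values seen, Epha1 (23.3, 19.5 and 20.7 in sham, 11.0, 8.39 and 17.5 in ON-CR mice) and Epha8 (38.2, 41.1 and 40.4, and 36.9, 32.5 and 34.4) were added as the EphA genes whose groups did not overlap. Their adjusted p-values were 0.415 and 0.796. Exons of Epha1 overlap those of Zyx on the other strand, and strand in the authors' counting is not given in the sources used here.

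Semaphorins numbered 20, of which 0 were called. Sema3b, the most abundant secreted member, was at 762, 929 and 980 in sham and 689, 693 and 739 in ON-CR mice, without overlap, with a log2 fold change of -0.32 (SE 0.13) and an adjusted p of 0.267. Of the 7 class 3 genes, 6 had fitted changes under 0, and the family median was -0.27, or -0.14 under scaling by library total. Sema3g was at or under 20.4 in every mouse, and its sign depended on ON-CR mouse 4. Sema3a, a repellent of many axon types that is also found in scar fibroblasts, overlapped between groups at 254 ± 54.7 (SD, n = 3) and 189 ± 39.9 (SD, n = 3).

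Among the 13 membrane-bound semaphorins, Sema4d had the highest level. It was at 2573, 3202 and 2572 in sham and 2260, 1644 and 2104 in ON-CR mice, with a log2 fold change of -0.48 (SE 0.15) and an adjusted p of 0.141. Sema7a, which carries a lipid anchor and acts through integrin and plexin-C1, was at 186, 239 and 161 in sham and 139, 87.0 and 103 in ON-CR mice, with a log2 fold change of -0.84 (SE 0.24) and an adjusted p of 0.111. Both had groups without overlap, as did Sema6a, named after its values were seen, with a log2 fold change of -0.36 (SE 0.11) and an adjusted p of 0.137. Oligodendrocytes express Sema4d and Sema6a, and the lower marker sums of myelinating oligodendrocytes given above moved in the same direction in the same mice. Their part in these values was not tested. The other 10 overlapped, and the family median was -0.11, or 0.01 under scaling by library total.

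The semaphorin receptors differed in sign among themselves. Plxnb2, which is present in microglia and macrophages as well as other cells, was at 1079, 1220 and 1277 in sham and 1679, 1339 and 1476 in ON-CR mice, with no overlap, a log2 fold change of 0.33 (SE 0.13) and an adjusted p of 0.245. Plxnb3, an X-linked gene expressed by oligodendrocytes and named after its values were seen, was at 1113, 1346 and 983 in sham and 896, 657 and 707 in ON-CR mice. Its groups did not overlap, with a log2 fold change of -0.61 (SE 0.16) and an adjusted p of 0.0895. Per kilobase, Plxnb2 to Plxnb3 stood at 0.815, 0.762 and 1.09 in sham libraries and at 1.58, 1.71 and 1.75 in ON-CR libraries, where the opposite order of both genes fixed that the groups would be apart. Microglial marker sums were higher and myelinating oligodendrocyte marker sums lower in the same mice. Oligodendrocyte precursor markers summed to 13079 to 14529 in sham and 12759 to 14332 in ON-CR mice. The part of these cell types in this ratio was not tested.

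Nrp1, the neuropilin gene with the higher level, was at 1600, 1309 and 1542 in sham and 1886, 1623 and 1748 in ON-CR mice, where the lowest ON-CR value was just above the highest sham value. Its log2 fold change was 0.24 (SE 0.12) with an adjusted p of 0.369. Nrp2 overlapped, with a log2 fold change of 0.36 (SE 0.15) and an adjusted p of 0.290. Plxna4, a partner of neuropilins in class 3 signalling, was at 87.8, 73.5 and 80.2 in sham and 135, 195 and 87.2 in ON-CR mice, where mouse 6 lay under sham mouse 1, with a log2 fold change of 0.71 (SE 0.29) and an adjusted p of 0.271. The other 6 plexins overlapped between groups, among them Plxnb1, the receptor of Sema4d, at 1359 ± 186 (SD, n = 3) and 1195 ± 179 (SD, n = 3).

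**Figure D3:**
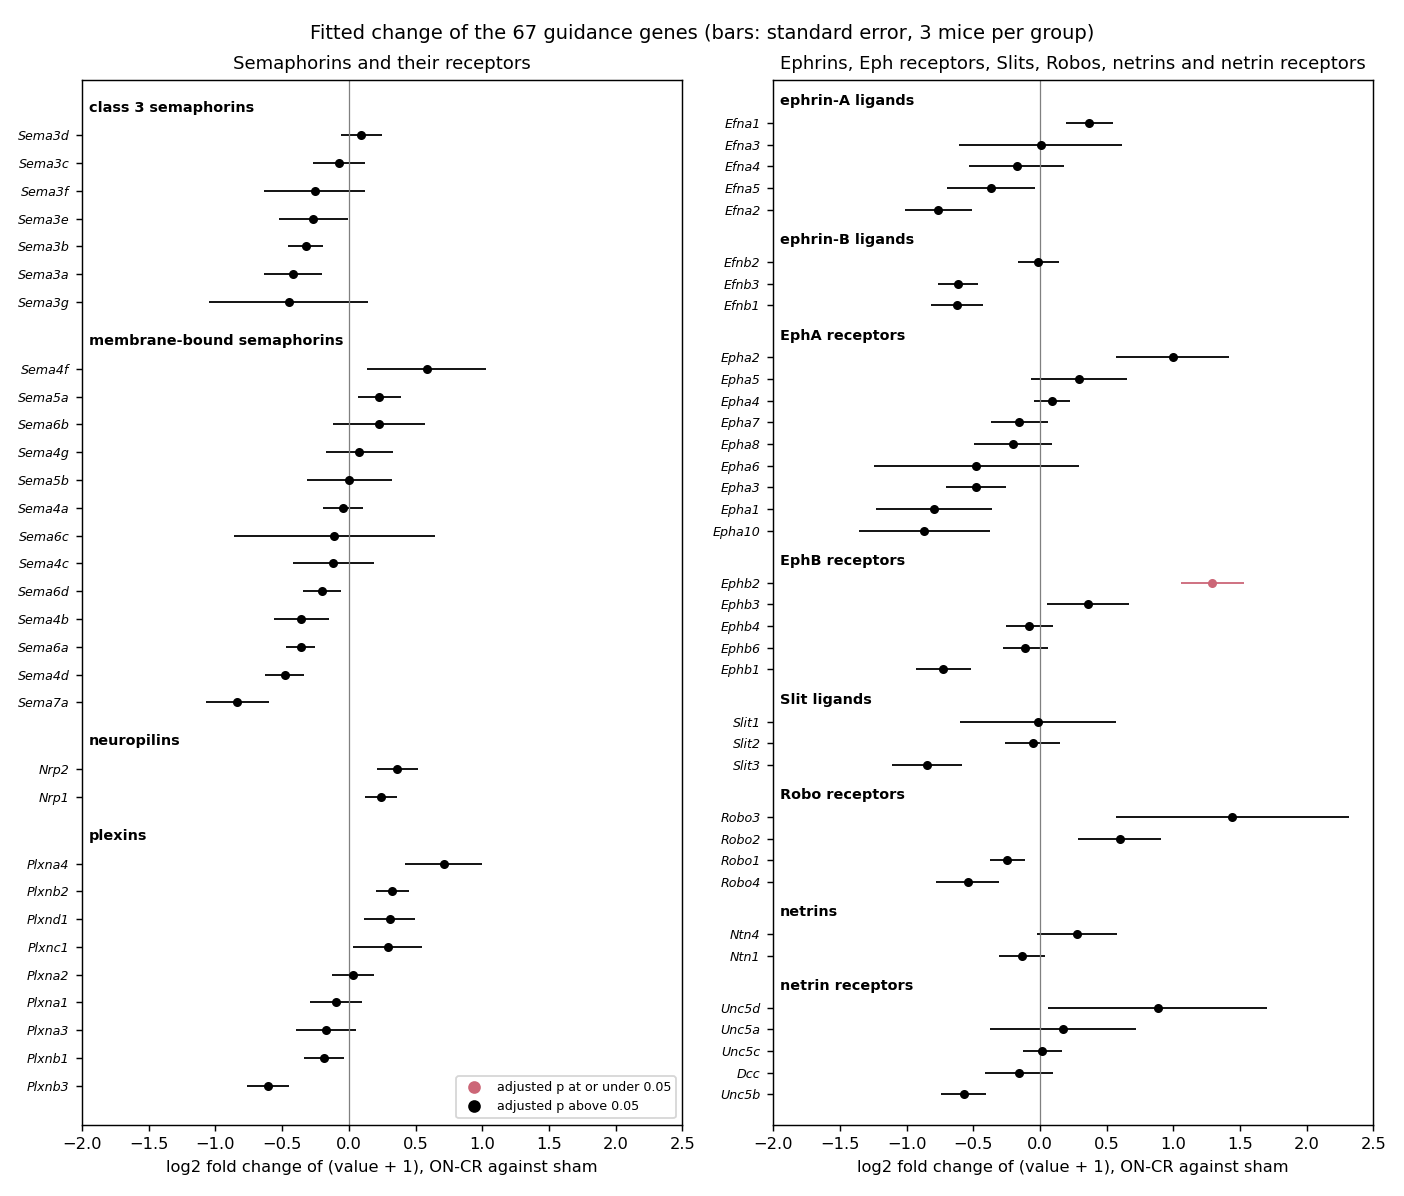
Fitted log2 fold change of (value + 1) after ON-CR against sham (x axis) for the 67 guidance genes by family (y axis), with bars for the standard error of a fit on 3 mice per group. Ephb2 is the only gene with an adjusted p at or under 0.05, at 1.29, and the other 66 lie between -0.87 and 1.44.

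Slit2 had the highest Slit level and overlapped between groups, at 822, 543 and 903 in sham and 686, 885 and 592 in ON-CR mice. Slit3 was at 76.4, 60.2 and 69.5 in sham and 36.9, 35.6 and 40.5 in ON-CR mice, with the groups apart, a log2 fold change of -0.85 (SE 0.26) and an adjusted p of 0.150. Robo1, the most abundant Slit receptor gene, was at 544 ± 48.6 (SD, n = 3) and 459 ± 30.7 (SD, n = 3), and overlapped with an adjusted p of 0.415. Robo4, the endothelial family member, was named after its values were seen as the Robo gene without overlap, at 83.8, 127 and 99.5 in sham and 66.8, 72.3 and 70.6 in ON-CR mice, with an adjusted p of 0.308. Robo3, which lets commissural axons cross the midline, was at 40.5 in ON-CR mouse 6 and at or under 6.57 in the other 5 mice. The summed plasma and B cell markers were 14806 in that mouse and 322 to 1029 in the others, and their part in the Robo3 value was not tested.

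Of the netrin genes, Ntn1 overlapped between groups at 246 ± 23.7 (SD, n = 3) and 225 ± 32.6 (SD, n = 3), and so did Ntn4, a basement membrane netrin, at 47.4 ± 10.2 (SD, n = 3) and 57.7 ± 12.6 (SD, n = 3). Unc5b (chr10:60762593-60831581, minus strand) was at 1196, 1243 and 978 in sham and 971, 648 and 703 in ON-CR mice. Its groups did not overlap, although ON-CR mouse 4 nearly reached sham mouse 3. The log2 fold change was -0.57 (SE 0.17), with an adjusted p of 0.126. It was called in 1 of 16 alternatives, at 0.0459 without ON-CR mouse 4, and was at 0.187 under scaling by library total, 0.312 without sham mouse 1 and 0.412 without sham mouse 2. Dcc, Unc5a and Unc5c overlapped, with log2 fold changes between -0.16 and 0.17.

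Counted over all 67 genes, 17 (25.4%) had groups that did not overlap, against 21.6% of all genes. Of these, 3 lay higher after ON-CR (4.48%, against 10.5% of all genes) and 14 lay lower (20.9%, against 11% of all genes). An unadjusted p at or under 0.05 was reached by 17 (25.4%, against 15.6%), and 5 were higher (7.46%, against 7.37%) and 12 lower (17.9%, against 8.22%). Among genes with a mean of at least 10 normalized reads, 21.5% of the guidance genes lay lower without overlap, against 13.1% of all such genes. An unadjusted p at or under 0.05 was reached there by 26.2% of the guidance genes, against 18.7%. By direction, 7.69% were higher, against 8.47%, and 18.5% lower, against 10.3%. The fitted change was under 0 for 41 of 67 genes (61.2%, against 47.2% of all genes), and the median log2 fold change was -0.11, against 0.03 over all genes. Direction depended on the scaling between libraries. Dividing by library totals instead moved the median of all genes to 0.15 and that of the guidance genes to 0.02, with 32 of 67 (47.8%) under 0, and gave 10 genes without overlap that lay higher and 9 that lay lower. The shares over all genes given above belong to the deposited scaling and were not counted under this one. Relative to the median of all genes, 44 of the 67 lay below it under both scalings. A scaling divides each library by 1 factor and so shifts all genes nearly alike. The count could therefore hardly differ between the scalings, and its agreement carries no weight.

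**Figure D4:**
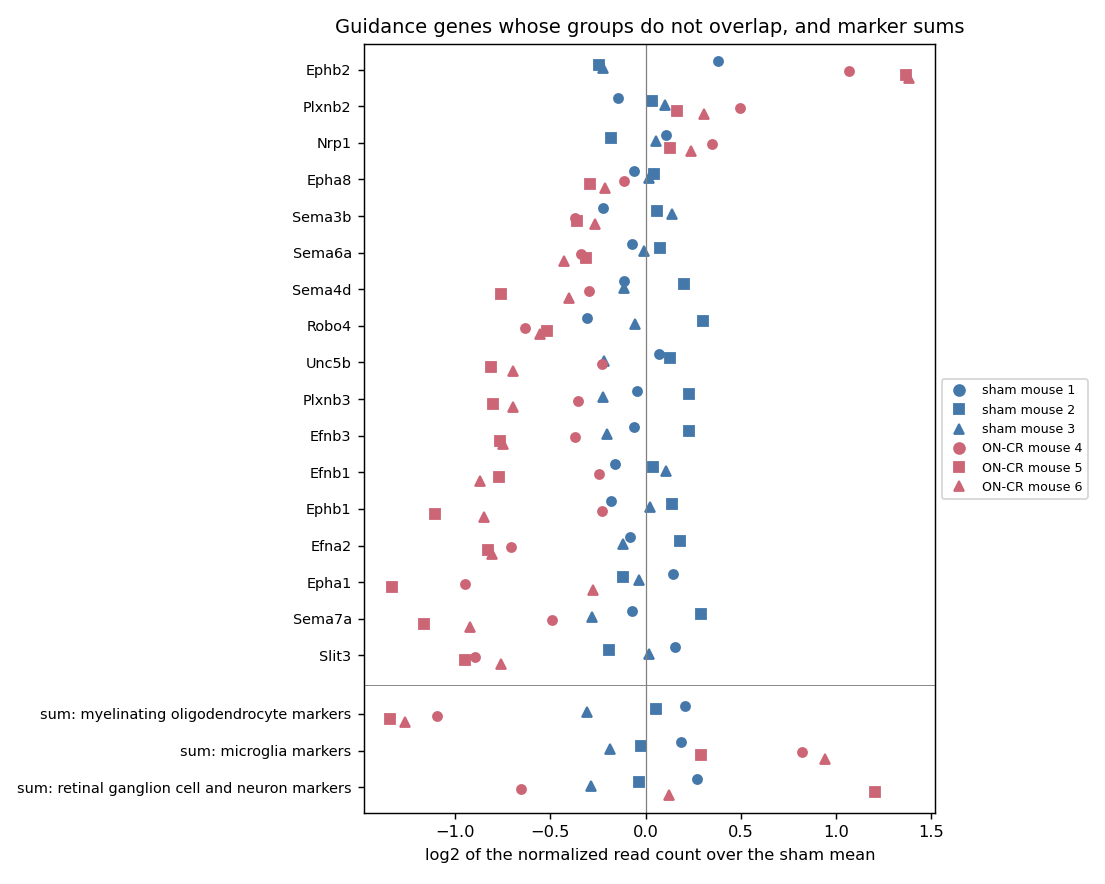
Log2 of the normalized read count over the sham mean (x axis) in each of the 6 mice, for the 17 guidance genes whose groups did not overlap and, under the line, for the summed markers of 3 cell types. The 3 genes at the top are higher and the other 14 lower in every ON-CR mouse, and ON-CR mouse 4 is often the ON-CR mouse nearest to the sham mice. The myelinating oligodendrocyte marker sum is lower in all ON-CR mice.

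Some guidance genes had their highest value in ON-CR mouse 5, about as often as all genes did. Unc5d was at 314.5 in ON-CR mouse 5 and at or under 86.0 in the other mice, Unc5a at 75.5 and at or under 30.1, Sema4f at 90.2 and at or under 39.3, and Slit1 at 78.0 and at or under 44.2. Apart from Unc5d, these were named after their values were seen. ON-CR mouse 5 had the highest value for 14 of the 67 genes (20.9%), and for 20.6% of all genes. It had the lowest value for 21 of the 67 (31.3%), and for 17.5% of all genes. A gene tied between libraries, such as at 0, was counted for the first of them only, which can lower the shares over all genes here. The 11 neuron markers in the table summed to 12760 in ON-CR mouse 5 and to 3509 to 6670 in the others, and none was at 0 in every library. These markers did not all move alike. Snap25 (3193) and Nefl (1666) had their highest values in ON-CR mouse 5. Rbpms was at 209 there, under sham mouse 3 (210) and ON-CR mouse 4 (215). The part of neuron markers in the values of the guidance genes was not tested. Without this mouse, the log2 fold change of Unc5d was -0.17 in place of 0.88.

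**Figure D5:**
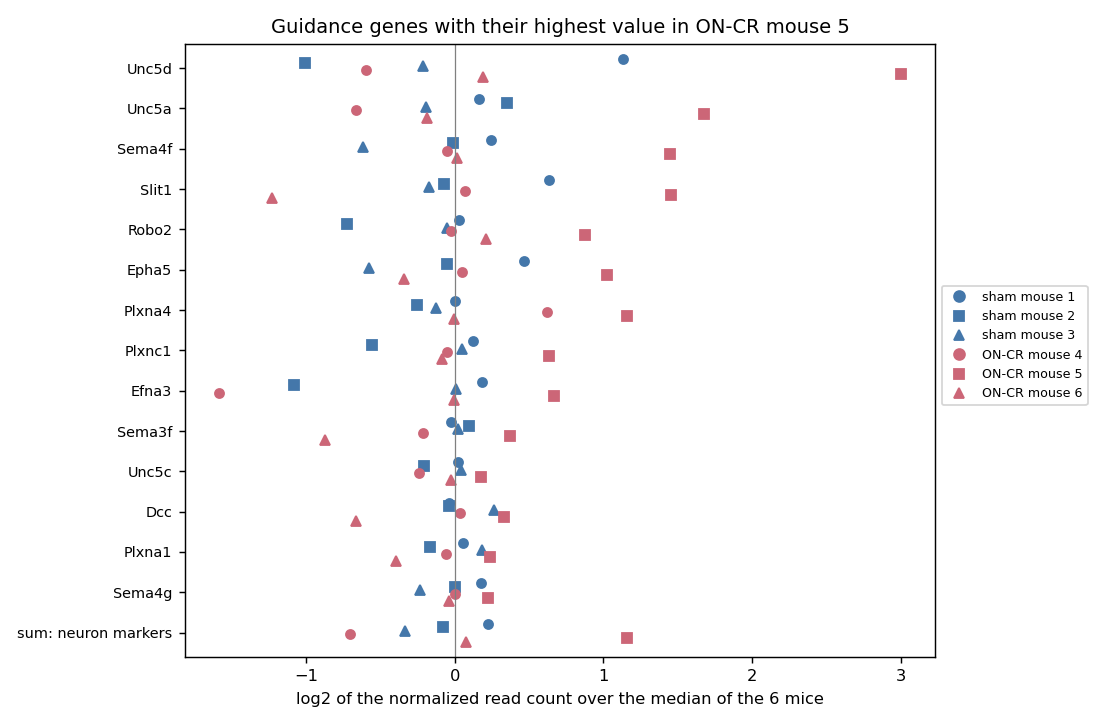
Log2 of the normalized read count over the median of the 6 mice (x axis) for the 14 guidance genes with their highest value in ON-CR mouse 5, and for the sum of neuron markers. Unc5d stands farthest out in ON-CR mouse 5, at 3.66 times the highest other mouse, and the neuron marker sum is highest in the same mouse.

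Partners of these cues were read from a pair of wider lists. Of 28 co-receptors and other ligands in the table, 1 rose and 1 fell, against 0.971% and 1.13% of all genes. Chl1, a cell adhesion molecule of the L1 family that acts as a co-receptor for class 3 semaphorins, rose from 656, 539 and 556 in sham to 1913, 1871 and 1797 in ON-CR mice. Its groups were far apart, with a log2 fold change of 1.68 (SE 0.12) and an adjusted p of 0.000274. Cntn2, an axonal and glial adhesion molecule at the juxtaparanode, fell from 4481, 5014 and 4125 to 3328, 2229 and 2833, with a log2 fold change of -0.71 (SE 0.15) and an adjusted p of 0.0427. Among 48 downstream genes, 0 rose and 1 fell. Epb41l3, which encodes a membrane-cytoskeleton linker also found at the paranodes of myelinated axons, fell from 5702, 6356 and 5185 to 3962, 3086 and 3423, with a log2 fold change of -0.72 (SE 0.13) and an adjusted p of 0.0210. The adjusted p of Chl1 was at or under 0.00986 in all 16 alternatives, while Cntn2 was called in 10 and Epb41l3 in 13 of them. At an unadjusted p at or under 0.05, 7 of the 28 co-receptor genes were higher and 2 lower, and 5 of the 48 downstream genes were higher and 8 lower, against 7.37% of all genes higher and 8.22% lower.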

How the data were processed

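RNA from optic nerves of 3 sham and 3 ON-CR mice was sequenced from libraries made with the SMARTer Ultra Low kit. The authors aligned and quantified reads with DRAGEN on mm10 with Ensembl gene models and normalized the counts by their median method in Partek Flow 10.0. The deposited values are a normalized signal for each gene, equal to an estimated count over a factor particular to the library. Between 65.1% and 67.7% of values were whole reads (within 0.01 read) after division by the value of 1 read, so no count model was run, and the count tests foreseen for raw counts were left out. Log2(value + 1) was fitted for all 25755 genes with limma 3.58.1 in R 4.3.3 (mean-variance trend), and p-values are two-sided with Benjamini-Hochberg adjustment over all genes. This scale understates the change of low genes. A call is an adjusted p at or under 0.05. The fit was also run on simulated reads, in which all genes shared a fixed spread and no library stood out. That setting is simpler than these data, so the simulation does not vouch for the calls made here. Replicate libraries differed by more than sampling noise (chi-square per degree of freedom of 15.1 to 42.6). Each library is labelled as a separate mouse and was counted as 1 replicate, although ON-CR mouse 4 held both Xist and Ddx3y. The study's methods for RNA extraction and PCR describe samples of more than 1 mouse. Whether this held for the sequenced libraries is not stated.

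Members were matched by symbol, leaving out 2 antisense symbols and Unc5cl. Members and lists were chosen with earlier results of these data known. The genes named were those called, those past the filter of the study's methods, in each family the one with the highest level per kilobase and the one with the largest change at a mean of at least 10, and the ligands of a called receptor; others are said to be named after their values were seen. Positions and exon lengths (the union of exons of all isoforms) are from GENCODE on GRCm38, found for 97.3% of genes and all 67 members, and promoters from RefSeq (GRCm38.p6). Exons of Efna3, Efna4, Epha1, Ephb4, Plxna1, Plxnb1, Plxnc1, Sema4c, Unc5a and Unc5c overlap another gene of the table, so their values are uncertain. Alternatives were other pseudocounts, filters, scalings, a robust and a weighted fit, removal of immunoglobulin, X- and Y-linked genes, and leaving out each mouse.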

Additional observations from a re-analysis of the deposited data

How the results depend on the processing

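Ephb2 was called in 13 of 16 alternatives and kept its direction in all of them. The number of guidance genes called was 2 in a robust fit and 0 to 4 when a mouse was left out (4 without ON-CR mouse 4, 0 without sham mouse 2, sham mouse 3 or ON-CR mouse 6), while the genes called over the whole table ranged from 67 without ON-CR mouse 6 to 854 without ON-CR mouse 5, against 540. The filter of the study's methods passed 2 of the 67 with a pseudocount of 0.1 and under upper-quartile, TMM and total scaling, 3 with sample quality weights, and 1 to 3 with a mouse left out. Scaling by total gave 10 genes higher at an unadjusted p at or under 0.05 (2 to 8 with a mouse left out), and 10 higher and 9 lower without overlap (3 to 9 higher with a mouse left out), and it set the median over the 67 genes to 0.020. For the filter, the unadjusted p and the overlap, shares over all genes were not counted under these alternatives. These counts are therefore not set against a background. Family medians under total scaling were -0.14 for class 3 semaphorins, 0.0088 for membrane-bound semaphorins, 0.16 for plexins and 0.30 for Robo receptors. Sample quality weights gave -0.30 for class 3 and -0.017 for membrane-bound semaphorins, a pseudocount of 2 gave -0.045 for the latter, and 10 reads in every library left Robo receptors at -0.24. Removal of immunoglobulin, X- and Y-linked genes, which drops Efnb1, Plxna3 and Plxnb3, gave 0.29 for plexins and -0.31 for ephrin-B ligands. With a mouse left out, medians ranged from -0.31 to -0.23 for class 3 and from -0.13 to -0.012 for membrane-bound semaphorins, from -0.080 to 0.12 for plexins, from -0.67 to 0.076 for Slits, from 0.063 to 0.26 for Robo receptors and from -0.37 to 0.12 for netrin receptors. Co-receptor genes called higher numbered 2 with a pseudocount of 2, 10 reads in every library, upper-quartile or TMM scaling, the robust fit or removal of immunoglobulin, X- and Y-linked genes, 3 under total scaling or quality weights, and 1 to 3 with a mouse left out. Those called lower numbered 0 with a pseudocount of 0.1 or total scaling and 0 to 2 with a mouse left out. Downstream genes called lower numbered 2 in the robust fit and 0 to 1 with a mouse left out, and those called higher 0 to 1. Signs changed for Efnb2 (0.0048 under upper-quartile and 0.12 under total scaling, -0.11 to 0.046 with a mouse left out) and Slit2 (0.073 under total scaling, -0.28 to 0.089 with a mouse left out). With a mouse left out, the log2 fold change ranged from -0.015 (without sham mouse 1) to 0.17 for Epha4, from -0.82 to 0.21 (without ON-CR mouse 4) for Sema3g and from -0.17 (without ON-CR mouse 5) to 1.60 for Unc5d. Where no construction is named, the cause was not tested. No paired analysis was possible because the labels number sham mice 1 to 3 and ON-CR mice 4 to 6, so the groups share no number. Depth limits genes at a few reads, such as Robo3, Sema6c and Epha6, and only counting error is covered by a read floor.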
